A study of Mus musculus with 20 samples.

Results

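The 35 genes described here encode 12 matrix metalloproteases (MMPs), 8 ADAMs, 9 ADAMTS proteases, 5 protease inhibitors (Timp1, Timp2, Timp3, Timp4 and Reck) and the serine protease Htra1. They were picked by gene symbol, and all 35 were found among the 27911 genes of the count table. RNA-seq was done on clonal derivatives of ATDC5, mouse cells that turn chondrocyte-like under insulin. The groups were Kmt2d-/- clones at day 7 of chondrogenic differentiation (n = 2), Kmt2d+/+ clones at day 7 (n = 3), undifferentiated Kmt2d-/- clones at day 0 (n = 2) and undifferentiated Kmt2d+/+ clones at day 0 (n = 3). In the Kmt2d-/- clones both alleles of Kmt2d, a histone H3 lysine methyltransferase, lacked the SET domain that carries its catalytic activity. Day 7 cells of both genotypes had been given ascorbic acid, beta-glycerophosphate and an insulin, transferrin and selenium supplement. Each clone is a separate line that was harvested at both days, so a genotype comparison rests on 2 Kmt2d-/- lines against 3 Kmt2d+/+ lines. Each library was run on 2 flow cells, and the runs were summed.

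MMPs are zinc proteases that cleave collagens, proteoglycans and other matrix proteins. Most are secreted, while Mmp14, Mmp15, Mmp16, Mmp17 and Mmp24 are held at the cell surface. ADAMs are membrane proteases that cut the outer part of growth factors and receptors free from the cell, and ADAMTS proteases are secreted enzymes, several of which cut aggrecan or process collagen. TIMPs block the active sites of these enzymes, and Reck does so at the membrane. In growth-plate cartilage, proteases of these families take part in turning over the matrix as chondrocytes mature.

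Depth was 35792709 to 66237183 counts per library. Of the 35 genes, 32 passed the filter on low counts and were tested among 15467 genes, and Mmp3, Mmp10 and Timp4 did not. Kmt2d itself had 113 to 175 CPM (counts scaled to library size) in the Kmt2d-/- clones and 173 to 207 CPM in the Kmt2d+/+ clones at day 7, with 148 to 205 CPM in the Kmt2d-/- clones and 185 to 211 CPM in the Kmt2d+/+ clones at day 0, but whole-gene counts cannot check the deleted domain. The summed level of 7 chondrocyte markers, all detected, was 23171 to 27008 CPM in Kmt2d-/- clones at day 7, 286 to 809.7 CPM in Kmt2d+/+ clones at day 7, 999.6 to 2828 CPM in Kmt2d-/- clones at day 0 and 31.9 to 117 CPM in Kmt2d+/+ clones at day 0. The 5 osteoblast markers summed to 943 to 1139 CPM in Kmt2d-/- and 619.9 to 1555 CPM in Kmt2d+/+ clones at day 7, and to 438 to 483 CPM in Kmt2d-/- and 267 to 359.9 CPM in Kmt2d+/+ clones at day 0. The 6 hypertrophic chondrocyte markers summed to 1142 to 1296 CPM in Kmt2d-/- and 1248 to 1914 CPM in Kmt2d+/+ clones at day 7, and to 291 to 323 CPM in Kmt2d-/- and 138 to 537 CPM in Kmt2d+/+ clones at day 0. The chondrocyte sum thus differed with genotype and day, and the hypertrophic sum with day. Of the hypertrophic markers only Ibsp passed with day, in Kmt2d+/+ clones (edgeR adjusted p = 0.0392). Ibsp is also an osteoblast marker, so the hypertrophic and osteoblast sums are not separate. It averaged 374 CPM in Kmt2d-/- and 352 CPM in Kmt2d+/+ clones at day 7, against 10.8 and 17.4 CPM at day 0. The osteoblast sum differed with day, and at day 0 it was higher in every Kmt2d-/- clone than in every Kmt2d+/+ clone. The part of these cells in the differences below was not tested. Markers of tendon and fibroblasts summed to 38.9 to 92.5 CPM and those of endothelium to 4.68 to 8.78 CPM over the 10 libraries. The 7 macrophage and osteoclast markers summed to at most 3.46 CPM, the 5 neutrophil markers to at most 0.143 CPM with S100a9 at 0 counts, and the 4 skeletal muscle markers to at most 0.139 CPM with Myog and Ckm at 0 counts. In such bulk libraries, fewer cells that express a gene and less of its RNA per cell cannot be told apart.

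Per length, inhibitors and a few matrix-facing proteases made up most of the summed level. Timp2 was highest, with a mean of 1567 TPM (a level per length of transcript) over the 4 groups, followed by Timp1 at 745 TPM, Mmp2 at 533 TPM, Timp3 at 437 TPM and Mmp14 at 414 TPM. Mmp14 is the membrane-bound collagenase that activates pro-Mmp2, with Timp2 as the bridge between them, so the 3 parts of that activation complex were among the 5 highest. The general sheddase Adam10 (199.7 TPM) and Htra1 (186 TPM), a secreted serine protease of cartilage matrix, came next. The order of neighbours is loose: the clones of Timp1 spanned 429.5 to 1652 TPM across the libraries and those of Mmp2 226 to 818 TPM, so these neighbours overlapped. The lowest was Timp4 at 0.0113 TPM.

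**Figure D1:**
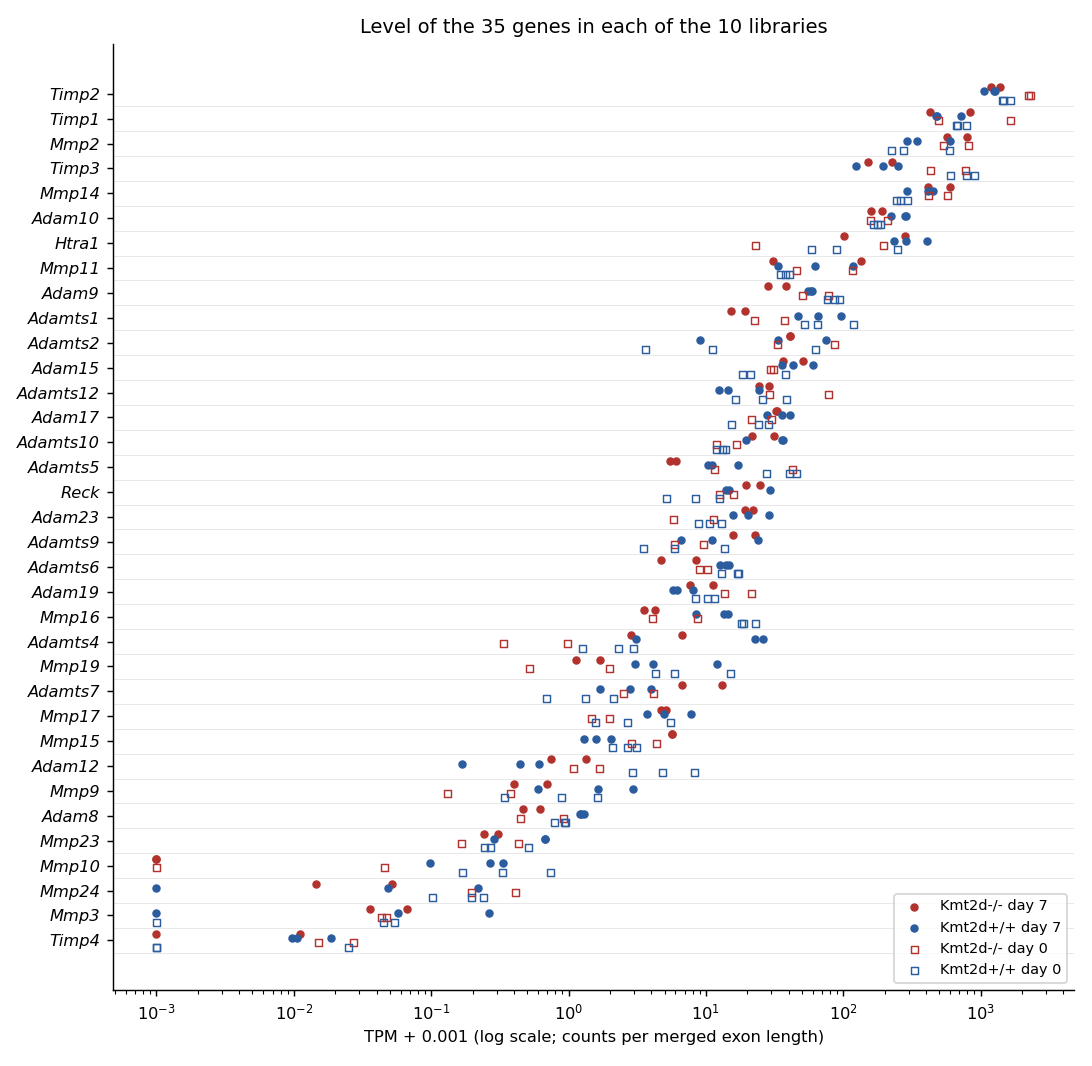
TPM of each of the 35 genes (log scale, 0.001 added so that values of 0 can be drawn) in each of the 10 libraries, ordered by the mean of the 4 group means. Filled points are day 7 and open squares day 0, red for Kmt2d-/- and blue for Kmt2d+/+. Timp2 stands highest at 1567 TPM and Timp4 lowest at 0.0113 TPM, and the libraries of most genes lie within a 10-fold range.

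Several proteases known from other stages of cartilage or from inflammation were low, and some were close to absent. Mmp3, a stromelysin, had 2 and 1 counts in Kmt2d-/- clones 1 and 2 at day 7, 0, 9 and 2 in Kmt2d+/+ clones 1 to 3 at day 7, 1 and 1 in the Kmt2d-/- clones at day 0, and 1, 1 and 0 in the Kmt2d+/+ clones at day 0. Its neighbour Mmp10, a second stromelysin, had 0 and 0 counts in Kmt2d-/- clones at day 7 and 3, 11 and 9 in Kmt2d+/+ clones at day 7. At day 0 Mmp10 had 1 and 0 counts in Kmt2d-/- clones, against 3, 16 and 8 in Kmt2d+/+ clones. On both days each Kmt2d+/+ clone thus held more Mmp10 counts than either Kmt2d-/- clone, at levels too low to test. Both days come from the same clones. Among all genes tested, 10.1% were lower in every Kmt2d-/- clone on both days. The gelatinase Mmp9, which passed the filter, had 24 and 39 counts in Kmt2d-/- clones and 38, 111 and 204 in Kmt2d+/+ clones at day 7. At day 0 Mmp9 had 6 and 16 counts in Kmt2d-/- clones, against 33, 72 and 17 in Kmt2d+/+ clones. Its day 0 log2 fold change was -1.94 (SE 0.86, edgeR adjusted p = 0.245). Mmp13, which is not among the 35 genes, is the collagenase of hypertrophic cartilage; it had 5 and 25 counts in Kmt2d-/- clones and 6, 23 and 19 in Kmt2d+/+ clones at day 7. At day 0 Mmp13 had 11 and 25 counts in Kmt2d-/- clones, against 10, 9 and 4 in Kmt2d+/+ clones. Scaled to CPM, both Mmp9 and Mmp13 overlapped between the genotypes on both days. At day 0 Mmp13 was at 0.266 CPM in Kmt2d-/- clone 1, below the 0.286 CPM of Kmt2d+/+ clone 1.

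The sequences before the start sites of 4 genes are shown to set the stromelysins Mmp3 and Mmp10, which fell below the filter, beside Mmp15 and Timp3, which passed a test. RefSeq (GRCm38.p6) gave promoters for 23 of the 35 genes, 26 in all. The letters TGANTCA, which AP-1 factors bind and which read the same on both strands, were searched in the 250 bases before each start and are in capitals. The windows lie at chr9:7445572-7445821 (Mmp3), chr9:7502092-7502341 (Mmp10), chr8:95352046-95352267 (Mmp15) and chr10:86300162-86300371 (Timp3), all on the plus strand and, for Mmp15 and Timp3, ended where the annotated gene begins.
Mmp3: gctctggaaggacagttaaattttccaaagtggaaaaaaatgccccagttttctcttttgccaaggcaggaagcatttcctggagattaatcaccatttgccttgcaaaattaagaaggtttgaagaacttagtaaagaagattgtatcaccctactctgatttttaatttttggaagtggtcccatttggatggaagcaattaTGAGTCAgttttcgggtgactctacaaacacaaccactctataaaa
Mmp10: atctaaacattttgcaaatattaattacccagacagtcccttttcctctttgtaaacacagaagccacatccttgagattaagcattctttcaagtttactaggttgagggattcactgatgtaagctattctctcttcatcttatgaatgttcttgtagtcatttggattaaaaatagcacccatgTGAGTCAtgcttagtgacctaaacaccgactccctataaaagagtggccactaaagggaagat
Mmp15: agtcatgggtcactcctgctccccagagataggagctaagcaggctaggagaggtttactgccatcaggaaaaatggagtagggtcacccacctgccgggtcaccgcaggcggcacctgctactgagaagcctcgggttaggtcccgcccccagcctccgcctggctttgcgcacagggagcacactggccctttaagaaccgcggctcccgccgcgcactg
Timp3: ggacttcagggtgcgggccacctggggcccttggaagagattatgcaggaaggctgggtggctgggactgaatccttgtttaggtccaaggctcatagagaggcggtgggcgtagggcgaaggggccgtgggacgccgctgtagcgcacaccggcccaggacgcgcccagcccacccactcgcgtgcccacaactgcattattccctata
The match begins 46 bases before the RefSeq start in Mmp3 and 63 bases before it in Mmp10, and 1 of the 3 Adam19 promoters holds another at 131 bases. That is 3 of 26 promoters (11.5%), against 6.75% of all 32851 promoters in the table. The windows of Mmp3 and Mmp10 hold 1 CpG each, while those of Mmp15 and Timp3 hold 14 and 18 in their full 250 bases. The median was 14.5 CpG in the 26 promoters and 6 in all. A match is a description of the letters and not a site in use.

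The first comparison set Kmt2d-/- against Kmt2d+/+ clones at day 7. A single gene passed, Mmp15, which encodes a membrane-bound MMP. It was 1 of 32 genes tested, against 1.87% of all genes at an edgeR adjusted p under 0.05. DESeq2 called 5 (Mmp15, Mmp16, Adamts1, Adamts6 and Adamts7), against 10.6% of all genes, and limma-voom called Mmp15 and Adamts7, against 3.45%. In 13 of the 32 (40.6%) every Kmt2d-/- clone lay on 1 side of every Kmt2d+/+ clone, near the 37.7% of all genes. The median absolute log2 fold change was 0.65 in the 32 genes and 0.36 in all genes tested, and the signed medians were 0.04 and -0.02.

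Mmp15 (GRCm38 chr8:95352268-95375080, plus strand) had 9.83 and 8.87 CPM in Kmt2d-/- clones 1 and 2 and 2.52, 3.08 and 1.87 CPM in Kmt2d+/+ clones 1 to 3 at day 7. The Kmt2d-/- clones lay close together and well above all Kmt2d+/+ clones. The fitted difference was 3.76-fold (log2 fold change 1.91, SE 0.32, edgeR adjusted p = 0.0316). At day 0 it had 4.9 and 6.51 CPM in Kmt2d-/- clones, against 4.35, 4.94 and 3.35 CPM in Kmt2d+/+ clones, and these overlapped, with a log2 fold change of 0.44 (SE 0.32, edgeR adjusted p = 0.48). The day 7 log2 fold change kept between 1.74 and 2.09 in all 16 settings, but its call did not: the edgeR adjusted p was 0.141 without Kmt2d-/- clone 1, 0.0935 without Kmt2d-/- clone 2, 0.0862 without Kmt2d+/+ clone 1, 0.179 without Kmt2d+/+ clone 3, 0.0531 from the first run alone and 0.0845 from the day 7 libraries alone.

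**Figure D2:**
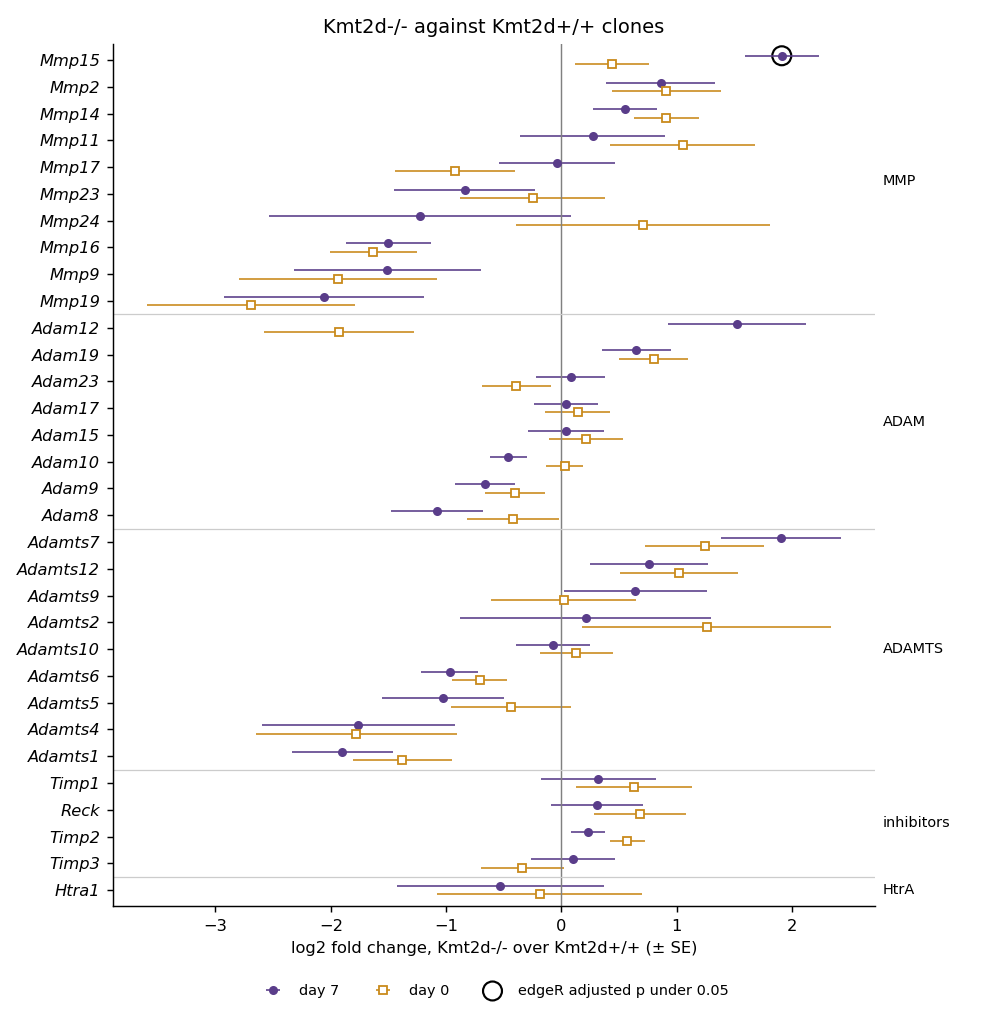
Fitted log2 fold change of Kmt2d-/- over Kmt2d+/+ clones with its SE for the 32 tested genes, by family and in order of the day 7 value. Filled circles are day 7 and open squares day 0; the ring marks an edgeR adjusted p under 0.05. Mmp15 at day 7 (1.91) carries the only ring, and Adam12 is the gene whose estimates lie farthest apart between days, at 1.52 on day 7 and -1.93 on day 0.

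The other cell-surface MMPs did not pass in edgeR. Mmp16, another membrane-bound MMP, had 11.9 and 8.93 CPM in Kmt2d-/- clones and 21.7, 33.1 and 33.6 CPM in Kmt2d+/+ clones at day 7, and 23.5 and 9.7 CPM in Kmt2d-/- clones against 48.7, 58.3 and 47 CPM in Kmt2d+/+ clones at day 0. Every Kmt2d-/- clone was below every Kmt2d+/+ clone on both days. The log2 fold change was -1.50 (SE 0.37, edgeR adjusted p = 0.0763) at day 7 and -1.63 (SE 0.38, edgeR adjusted p = 0.0588) at day 0. DESeq2 passed it on both days (adjusted p = 0.00234 and 6.39e-04). At day 0 the log2 fold change of Mmp16 was -2.40 when Kmt2d-/- clone 1 was left out. Mmp14 had 1160.2 and 722 CPM in Kmt2d-/- clones and 788, 488 and 656 CPM in Kmt2d+/+ clones at day 7, which overlapped. At day 0 it had 1077 and 687 CPM in Kmt2d-/- clones, above the 519, 455 and 436 CPM of the Kmt2d+/+ clones (log2 fold change 0.91, SE 0.28, edgeR adjusted p = 0.118). Mmp17 overlapped between genotypes on both days, with 10.9 and 8.98 CPM in Kmt2d-/- clones and 9.7, 14.5 and 6.56 CPM in Kmt2d+/+ clones at day 7. Mmp24 was below 1 CPM in all 10 libraries, as was Mmp23.

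Of the secreted MMPs, Mmp19, which cleaves basement-membrane and matrix proteins, was lower in both Kmt2d-/- clones than in every Kmt2d+/+ clone on both days. It had 1.92 and 1.17 CPM in Kmt2d-/- clones and 4.31, 12.1 and 2.9 CPM in Kmt2d+/+ clones at day 7, and 2.22 and 0.504 CPM in Kmt2d-/- clones against 6.27, 15.7 and 4.53 CPM in Kmt2d+/+ clones at day 0. Kmt2d+/+ clone 2 was the highest on both days. The log2 fold change was -2.06 (SE 0.87, edgeR adjusted p = 0.233) at day 7 and -2.69 (SE 0.90, edgeR adjusted p = 0.142) at day 0. Leaving out Kmt2d+/+ clone 2 gave -1.22 at day 7 and -1.99 at day 0, and at day 0 the value was -4.12 when Kmt2d-/- clone 1 was left out and -1.98 when Kmt2d-/- clone 2 was. DESeq2 passed Mmp19 at day 0 (adjusted p = 0.00907). Part of the exons of Mmp19 (22.3% of their bases) is shared with Tmem198b on the other strand, which had 17.4 and 20.5 CPM in Kmt2d-/- clones and 34.9, 17.1 and 30.0 CPM in Kmt2d+/+ clones at day 7. At day 0 Tmem198b had 13.9 and 16.1 CPM in Kmt2d-/- clones, below the 31.3, 16.3 and 27.2 CPM of the Kmt2d+/+ clones. That is the same direction as Mmp19. Kmt2d+/+ clone 2, the highest in Mmp19, had the lowest Tmem198b of its genotype on both days. The part of Tmem198b in the Mmp19 values was not tested. Strand use in counting is not stated in the sources at hand. The gelatinase Mmp2 had 869.6 and 554 CPM in Kmt2d-/- clones and 341, 572 and 263 CPM in Kmt2d+/+ clones at day 7, and 865 and 496 CPM in Kmt2d-/- clones against 276, 582 and 227 CPM in Kmt2d+/+ clones at day 0. Kmt2d+/+ clone 2 reached into the range of the Kmt2d-/- clones each time (edgeR adjusted p = 0.35 at day 7 and 0.311 at day 0). Mmp11, known from the stroma of tumours, differed more among clones than between genotypes at day 7, with 27.6 and 108 CPM in Kmt2d-/- clones and 96.6, 26.3 and 46.2 CPM in Kmt2d+/+ clones. At day 0 it had 39.9 and 89.4 CPM in Kmt2d-/- clones, above the 31.4, 33 and 29 CPM of the Kmt2d+/+ clones, by a log2 fold change of 1.05 (edgeR adjusted p = 0.387) that was 0.36 without Kmt2d-/- clone 2.

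Among the ADAMs, Adam12, also called meltrin alpha and known from muscle cell fusion, changed sides between the days. At day 7 it had 4.6 and 2.27 CPM in Kmt2d-/- clones, above the 1.37, 0.501 and 1.73 CPM of the Kmt2d+/+ clones (log2 fold change 1.52, SE 0.60, edgeR adjusted p = 0.208). At day 0 it had 5.58 and 3.16 CPM in Kmt2d-/- clones, below the 26, 8.96 and 15.2 CPM of the Kmt2d+/+ clones (log2 fold change -1.93, SE 0.65, edgeR adjusted p = 0.143). Neither passed in edgeR, and without Kmt2d-/- clone 1 the day 7 value was 0.92. Without Kmt2d+/+ clone 2 the day 0 value passed (log2 fold change -2.24, edgeR adjusted p = 0.0481), as it did in DESeq2 (adjusted p = 0.0169). Adam10 had 253 and 273 CPM in Kmt2d-/- clones, below the 409, 308 and 368 CPM of the Kmt2d+/+ clones at day 7, a log2 fold change of -0.46 (SE 0.16, edgeR adjusted p = 0.17), and overlapped at day 0 with 245 and 284 CPM in Kmt2d-/- clones and 277, 254 and 244 CPM in Kmt2d+/+ clones. The sheddases Adam9 and Adam8 were also lower in every Kmt2d-/- clone at day 7 (edgeR adjusted p = 0.202 and 0.184). In CPM, Adam19 was higher in both Kmt2d-/- clones on both days. At day 7 the gap was narrow, with 15.7 CPM in Kmt2d-/- clone 2 and 15.4 CPM in Kmt2d+/+ clone 3. Its log2 fold change was 0.65 (SE 0.30) at day 7 and 0.80 (SE 0.30) at day 0 (edgeR adjusted p = 0.278 and 0.182). Adam15, Adam17, the sheddase of tumour necrosis factor, and Adam23, which lacks protease activity, overlapped between genotypes on both days.

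The ADAMTS proteases lay in both directions, none past the threshold in edgeR. Adamts1, which cleaves aggrecan and versican, had 26 and 29.6 CPM in Kmt2d-/- clones and 73.4, 144 and 93 CPM in Kmt2d+/+ clones at day 7, and 62.1 and 33 CPM in Kmt2d-/- clones against 103, 184 and 83.2 CPM in Kmt2d+/+ clones at day 0. It was below every Kmt2d+/+ clone in both Kmt2d-/- clones on both days. The log2 fold change was -1.90 (SE 0.44, edgeR adjusted p = 0.0614) at day 7 and -1.38 (SE 0.43, edgeR adjusted p = 0.121) at day 0, and DESeq2 passed it on both (adjusted p = 3.77e-04 and 0.0155). Adamts7, which cleaves the cartilage protein Comp, ran the other way. It had 13.6 and 24.1 CPM in Kmt2d-/- clones and 7.4, 2.99 and 4.7 CPM in Kmt2d+/+ clones at day 7, and 4.95 and 7.22 CPM in Kmt2d-/- clones against 3.98, 2.44 and 1.31 CPM in Kmt2d+/+ clones at day 0. Both Kmt2d-/- clones were above all Kmt2d+/+ clones on both days (log2 fold change 1.90, SE 0.52, edgeR adjusted p = 0.0934 at day 7 and 1.24, SE 0.52, edgeR adjusted p = 0.225 at day 0). The day 7 difference of Adamts7 passed in DESeq2 (adjusted p = 0.00743) and in limma-voom (adjusted p = 0.0436, and 0.0441 with clone as a random block).

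The aggrecanase Adamts4 had 4.44 and 9.32 CPM in Kmt2d-/- clones and 32.1, 4.19 and 33.4 CPM in Kmt2d+/+ clones at day 7. Kmt2d+/+ clone 2 lay below both Kmt2d-/- clones, so the genotypes overlapped. At day 0 Adamts4 had 0.507 and 1.31 CPM in Kmt2d-/- clones, below the 4.3, 1.79 and 3.31 CPM of the Kmt2d+/+ clones (log2 fold change -1.78, SE 0.87, edgeR adjusted p = 0.29, and -2.61 on that scale without Kmt2d-/- clone 2). Adamts5, the main aggrecanase of mouse cartilage, had 21 and 17.3 CPM in Kmt2d-/- clones, below the 34.8, 52.6 and 30.1 CPM of the Kmt2d+/+ clones at day 7, a log2 fold change of -1.03 (SE 0.53, edgeR adjusted p = 0.322), and overlapped at day 0. Adamts6 was lower in both Kmt2d-/- clones on both days, by a log2 fold change of -0.97 (SE 0.25, edgeR adjusted p = 0.0784) at day 7 and -0.71 (SE 0.24, edgeR adjusted p = 0.149) at day 0. The procollagen N-proteinase Adamts2, and Adamts9, Adamts10 and Adamts12, overlapped between genotypes on both days.

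No inhibitor passed between genotypes in edgeR. Timp2 had 1496 and 1573 CPM in Kmt2d-/- clones and 1458, 1166 and 1309 CPM in Kmt2d+/+ clones at day 7, and 2715 and 2479 CPM in Kmt2d-/- clones against 1910.1, 1646 and 1708 CPM in Kmt2d+/+ clones at day 0. Both Kmt2d-/- clones were above all Kmt2d+/+ clones each time, by 1.17-fold at day 7 (edgeR adjusted p = 0.462) and 1.48-fold at day 0 (edgeR adjusted p = 0.0843). Reck had 18.7 and 20.7 CPM in Kmt2d-/- clones, above the 7.45, 17.5 and 12 CPM of the Kmt2d+/+ clones at day 0 (edgeR adjusted p = 0.377), and overlapped at day 7. Timp1 and Timp3 overlapped on both days. Timp1 differed widely between the Kmt2d-/- clones, at 461 CPM in clone 1 and 121 CPM in clone 2 at day 0.

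At day 0, edgeR called 0 of the 32 genes between genotypes, against 2.15% of all genes. At an unadjusted p under 0.05 the count was 10 (Mmp9, Mmp14, Mmp16, Mmp19, Adam12, Adam19, Adamts1, Adamts6, Adamts7 and Timp2; 31.2%), against 20.2% of all genes. DESeq2 called 6 (Mmp14, Mmp16, Mmp19, Adam12, Adamts1 and Timp2), against 11.0% of all genes, and limma-voom called Mmp16, against 1.72%. In 12 genes (37.5%) the clones of the genotypes did not overlap, against 36.9% of all genes. In CPM, on both days alike, Adam19, Adamts7 and Timp2 were higher and Mmp16, Mmp19, Adamts1 and Adamts6 were lower in every Kmt2d-/- clone. These 3 and 4 of 32 stand beside 9.53% and 10.1% of all genes. In TPM, Timp2 and Adam19 overlapped at day 7. Timp2 was at 1187 TPM in Kmt2d-/- clone 1, below 1274 TPM in Kmt2d+/+ clone 1. Adam19 was at 7.6 TPM in Kmt2d-/- clone 2, below 8.06 TPM in Kmt2d+/+ clone 3. Of the tendon and fibroblast markers, Scx was lower in Kmt2d-/- clones at day 7 (log2 fold change of -1.58, edgeR adjusted p = 0.0346). The others did not go with it as a set: Mkx was at -0.66 (edgeR adjusted p = 0.247) and Pdgfra at 0.76 (edgeR adjusted p = 0.527). Tnmd and Thy1 did not pass the filter on low counts. Col2a1 and Matn3 of the chondrocyte markers were higher in Kmt2d-/- clones at day 7. The part of these cells in the genotype differences was not tested. The 2 genotype comparisons use the same clones, so 1 day does not stand as a separate test of the other.

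**Figure D3:**
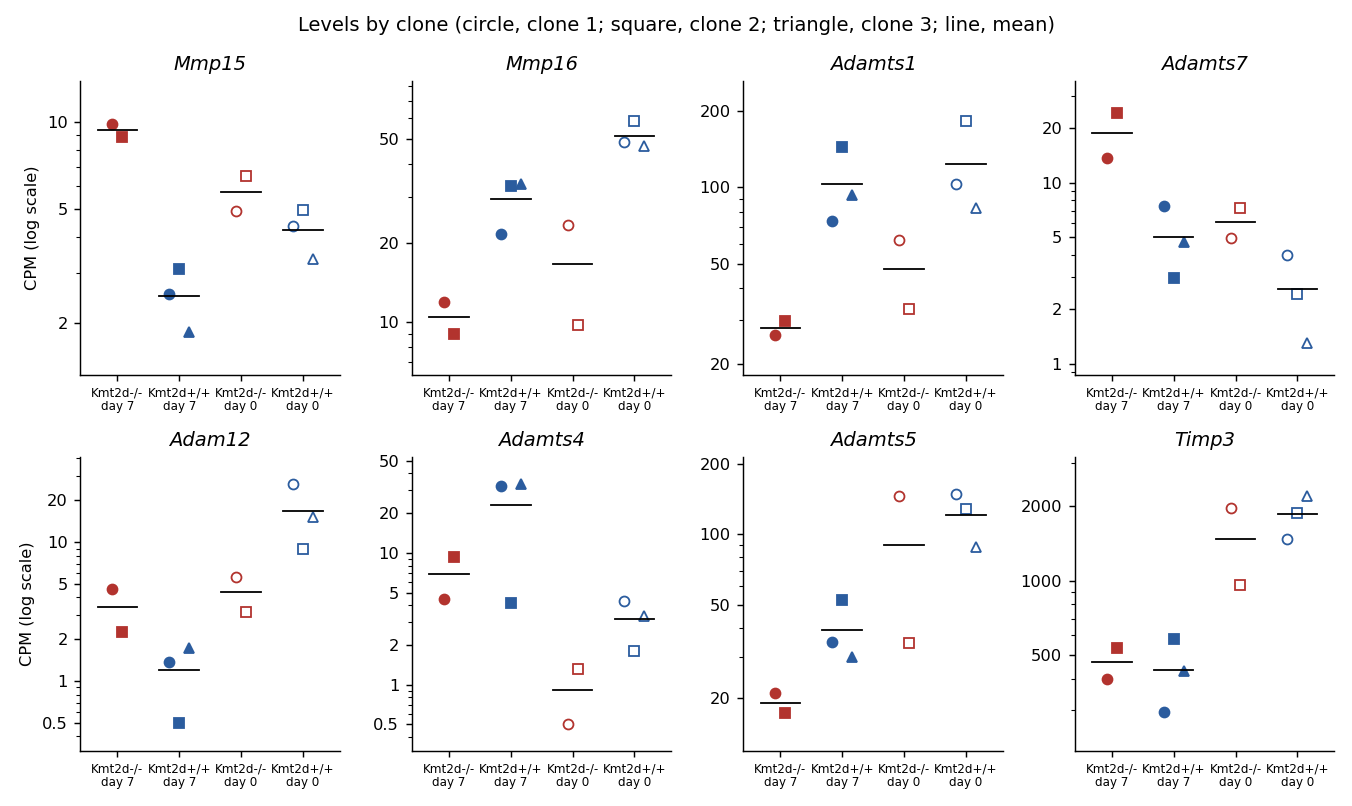
CPM (log scale) of 8 of the genes in each clone, by genotype and day; circles are clone 1, squares clone 2 and triangles clone 3, filled at day 7 and open at day 0, and lines are group means. Mmp15 is at 9.83 and 8.87 CPM in Kmt2d-/- clones at day 7 with all Kmt2d+/+ clones under 3.1 CPM, while every clone has less Timp3, Adamts5 and Adam12 at day 7 than at day 0, a difference that passed in edgeR for Timp3 and Adam12 in Kmt2d+/+ clones.

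The second comparison asked what changed between day 7 and day 0 within each genotype. In Kmt2d+/+ clones Adam12 and Timp3 fell, 2 of 32 genes, against 5.08% of all genes in edgeR. DESeq2 called 9 (against 15.1%) and limma-voom called the same pair (against 5.08%). In Kmt2d-/- clones edgeR called 0, against 1.27% of all genes, with 10 at an unadjusted p under 0.05 (31.2%), against 14.8%. There DESeq2 called 5 (Adam23, Adamts4, Adamts5, Timp2 and Timp3), against 6.75%, and limma-voom 0, against 1.16%. The same clones were harvested on both days, and a term for each clone raised the counts. With it edgeR called 5 in Kmt2d-/- clones, against 5.57% of all genes: Adam23, Adamts4 and Adamts9 were higher (3.16% of all genes) and Adam9 and Timp2 lower (2.41%). In Kmt2d+/+ clones it called 15, against 18.0%. Of these 9 were higher at day 7 (10.3% of all genes): Adam10, Adam15, Adam17, Adam23, Adamts4, Adamts9, Adamts10, Reck and Htra1. The other 6 were lower (7.76%): Mmp16, Adam9, Adam12, Adam19, Adamts5 and Timp3.

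Adam12 (chr7:133883199-134232146, minus strand) had 1.37, 0.501 and 1.73 CPM in Kmt2d+/+ clones 1 to 3 at day 7 and 26, 8.96 and 15.2 CPM in the same clones at day 0. Every clone was lower at day 7, and the days did not overlap. The fall was 13.9-fold (log2 fold change -3.80, SE 0.60, edgeR adjusted p = 0.0202, and 0.00583 with a term for each clone). Leaving out Kmt2d+/+ clone 1 ended the call (edgeR adjusted p = 0.142), as did leaving out Kmt2d+/+ clone 3 (edgeR adjusted p = 0.215). In Kmt2d-/- clones Adam12 had 4.6 and 2.27 CPM at day 7, against 5.58 and 3.16 CPM at day 0, a log2 fold change of -0.35 (SE 0.67, edgeR adjusted p = 0.875).

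Timp3 (chr10:86300372-86349506, plus strand), a matrix-bound inhibitor of MMPs, Adam17 and the aggrecanases, had 294, 580.3 and 428 CPM in Kmt2d+/+ clones at day 7 and 1480.0, 1886 and 2208 CPM at day 0. All 3 clones were lower at day 7, with no overlap between days, by 4.28-fold (log2 fold change -2.10, SE 0.34, edgeR adjusted p = 0.0202, and 0.0133 with a term for each clone). The call of Timp3 was also lost when Kmt2d+/+ clone 1 was left out (edgeR adjusted p = 0.12) or Kmt2d+/+ clone 3 (edgeR adjusted p = 0.239). In Kmt2d-/- clones it had 398 and 534 CPM at day 7, against 1971 and 963 CPM at day 0. Both were lower at day 7, with a log2 fold change of -1.65 (SE 0.41) that missed the threshold (edgeR adjusted p = 0.0945, and 0.0646 with a term for each clone). It passed in DESeq2 (adjusted p = 0.0026) and with clone as a random block in limma-voom (adjusted p = 0.0201). Leaving out Kmt2d-/- clone 1 gave a log2 fold change of -0.86, and leaving out Kmt2d-/- clone 2 gave -2.31. Of the exonic bases of Timp3, 21.3% are shared with Syn3 on the other strand, which had 0.825 to 2.27 CPM in the 10 libraries. The part of Syn3 in the Timp3 values was not tested.

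Adamts4 and Adamts5, the aggrecanases, lay in opposite directions with day. Adamts4 had 4.44 and 9.32 CPM at day 7, against 0.507 and 1.31 CPM at day 0 in Kmt2d-/- clones, and 32.1, 4.19 and 33.4 CPM at day 7, against 4.3, 1.79 and 3.31 CPM at day 0 in Kmt2d+/+ clones. It was higher at day 7 in all 5 clones. The log2 fold change was 2.92 (SE 0.95) in Kmt2d-/- and 2.89 (SE 0.76) in Kmt2d+/+ clones (edgeR adjusted p = 0.187 and 0.0607), and with a term for each clone it passed in both (edgeR adjusted p = 0.0368 and 0.0186). With clone as a random block in limma-voom the adjusted p was 0.203 in Kmt2d-/- and 0.0482 in Kmt2d+/+ clones. Without Kmt2d+/+ clone 2 it also passed in Kmt2d+/+ clones (log2 fold change 3.11, edgeR adjusted p = 0.0299). Adamts5 had 21 and 17.3 CPM at day 7, against 145 and 34.3 CPM at day 0 in Kmt2d-/- clones, and 34.8, 52.6 and 30.1 CPM at day 7, against 148, 128 and 88.3 CPM at day 0 in Kmt2d+/+ clones. It was lower at day 7 in all 5 clones, by a log2 fold change of -2.23 (SE 0.59, edgeR adjusted p = 0.113) in Kmt2d-/- and -1.63 (SE 0.47, edgeR adjusted p = 0.0757) in Kmt2d+/+ clones. The term for each clone gave an edgeR adjusted p of 0.0636 in Kmt2d-/- and 0.0293 in Kmt2d+/+ clones, and the random block in limma-voom 0.0419 and 0.0125. Leaving out Kmt2d-/- clone 1 gave a log2 fold change of -1.0 in Kmt2d-/- clones. In Kmt2d+/+ clones Adamts5 also passed when Kmt2d-/- clone 1 (edgeR adjusted p = 0.0389) or Kmt2d-/- clone 2 (edgeR adjusted p = 0.038) was left out.

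Every clone of both genotypes was higher at day 7 in 11 of the 32 genes (34.4%), against 20.2% of all genes: Mmp14, Mmp17, Adam15, Adam17, Adam23, Adamts4, Adamts7, Adamts9, Adamts10, Reck and Htra1. Every clone was lower in 10 (31.2%), against 18.8% of all genes: Mmp16, Mmp24, Adam9, Adam12, Adam19, Adamts5, Adamts12, Timp1, Timp2 and Timp3. The 3 expressed TIMPs are thus all in the second list and Reck in the first. Mmp24 of the second list had few counts, and Kmt2d+/+ clone 3 was level between the days. That clone had 0.273 CPM (20 counts) of Mmp24 at day 7 and 0.274 CPM (13 counts) at day 0. Timp2, read in the values above, was 1.69-fold lower at day 7 in Kmt2d-/- clones (edgeR adjusted p = 0.074, and 0.0422 with a term for each clone) and 1.34-fold lower in Kmt2d+/+ clones (edgeR adjusted p = 0.106, 0.0562 with that term and 0.0149 with the random block in limma-voom). Adam23 rose with that term in both, by a log2 fold change of 1.41 (edgeR adjusted p = 0.0387) in Kmt2d-/- and 0.88 (edgeR adjusted p = 0.0372) in Kmt2d+/+ clones. Adamts9 did so too, by 1.39 (edgeR adjusted p = 0.00961) in Kmt2d-/- and 0.79 (edgeR adjusted p = 0.0127) in Kmt2d+/+ clones, but not with the random block in limma-voom (adjusted p = 0.0611 and 0.117). Adamts7 was 3.09-fold higher at day 7 in Kmt2d-/- clones (edgeR adjusted p = 0.235, and 0.0297 with the random block in limma-voom) and 1.96-fold higher in Kmt2d+/+ clones (edgeR adjusted p = 0.25), with 1 direction in all 5 clones. The median absolute log2 fold change with day was 0.74 in Kmt2d-/- and 0.73 in Kmt2d+/+ clones, against 0.34 and 0.38 in all genes tested. The chondrocyte and osteoblast sums given above were higher at day 7 in both genotypes. In edgeR all 5 osteoblast markers (Runx2, Sp7, Bglap, Ibsp and Dmp1) passed as higher at day 7 in Kmt2d+/+ clones and Bglap did in Kmt2d-/- clones, and the part of these cells in the differences was not tested.

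**Figure D4:**
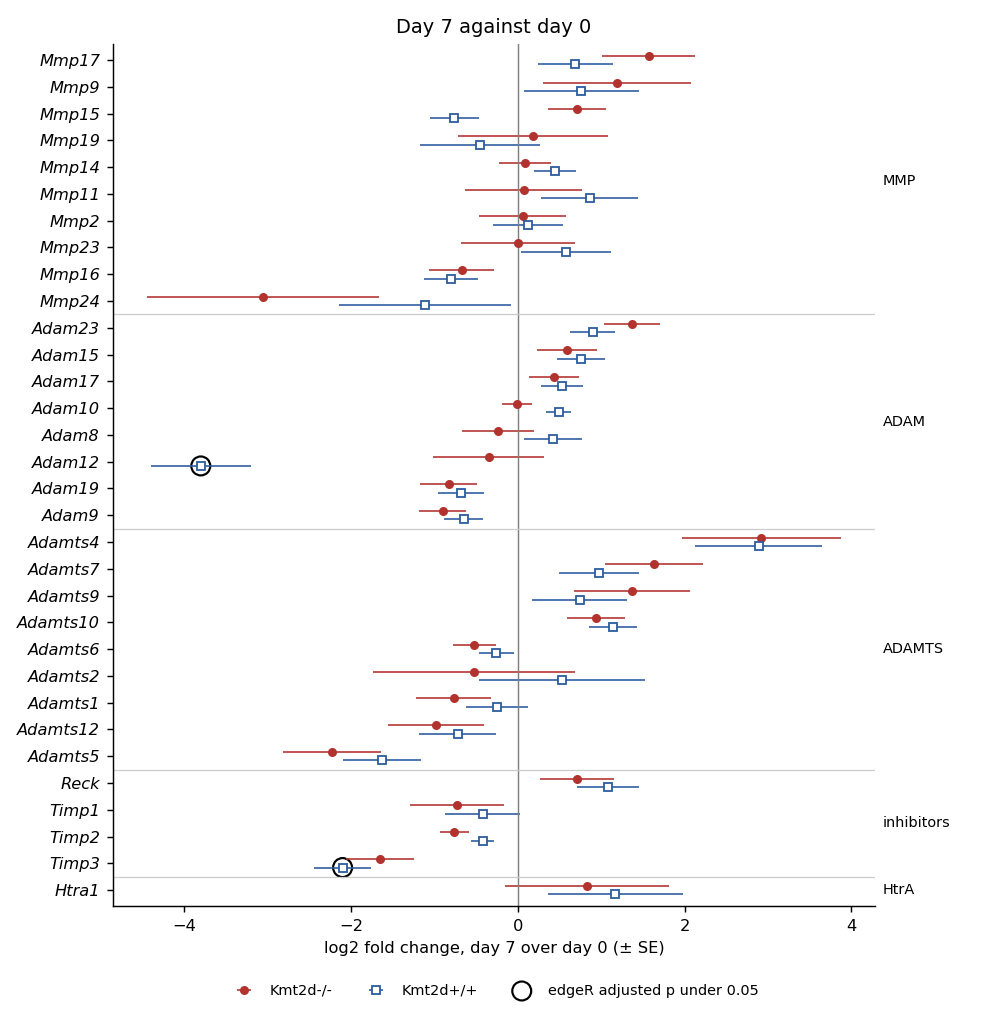
Fitted log2 fold change of day 7 over day 0 with its SE for the 32 tested genes, by family and in order of the value in Kmt2d-/- clones. Filled circles are Kmt2d-/- and open squares Kmt2d+/+ clones, and rings mark an edgeR adjusted p under 0.05 without a term for each clone, carried by Adam12 (-3.80) and Timp3 (-2.10) in Kmt2d+/+ clones.

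The third comparison asked whether the day effect differed between genotypes. No gene passed in edgeR, none of the 32 and 0% of all genes, with or without a term for each clone, and limma-voom also called 0. At an unadjusted p under 0.05 edgeR had 2 of the 32, Mmp15 and Adam12, against 3.67% of all genes. DESeq2 called Adam12 (adjusted p = 0.0362), against 0.194% of all genes. For Adam12 the Kmt2d-/- day effect minus the Kmt2d+/+ one was 3.45 on the log2 scale (SE 0.89, edgeR adjusted p = 1 and unadjusted p = 0.00362). Mmp15 was higher at day 7 in both Kmt2d-/- clones (log2 fold change 0.71, SE 0.35, edgeR adjusted p = 0.397) and lower in all 3 Kmt2d+/+ clones, by a log2 fold change of -0.76 (SE 0.29, edgeR adjusted p = 0.146). The difference of these was 1.47 (SE 0.45, edgeR adjusted p = 1 and unadjusted p = 0.00992). It was the single gene of the 32 with every Kmt2d-/- clone up and every Kmt2d+/+ clone down, against 2.08% of all genes, and 0 of the 32 had the reverse pattern, against 2.75%.

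Set against each other per length, the inhibitors took a smaller share of the summed level at day 7 than at day 0. The 5 inhibitors made up 50.0% and 54.6% of the summed TPM of the 35 genes in Kmt2d-/- clones and 51.4%, 50.7% and 52.5% in Kmt2d+/+ clones at day 7. At day 0 they made up 67.4% and 67.3% in Kmt2d-/- clones and 70.4%, 62.4% and 73.8% in Kmt2d+/+ clones. Every clone was lower at day 7, and the days did not overlap. The 12 MMPs summed to 1448 and 1131 TPM in Kmt2d-/- clones and 933, 961 and 791 TPM in Kmt2d+/+ clones at day 7, and to 1455 and 1084 TPM in Kmt2d-/- clones against 632, 944 and 534 TPM in Kmt2d+/+ clones at day 0. Both Kmt2d-/- clones were above all Kmt2d+/+ clones each time, and Mmp2 and Mmp14 carry most of these sums. The sums are described without a test, and RNA levels do not measure enzyme activity.

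**Figure D5:**
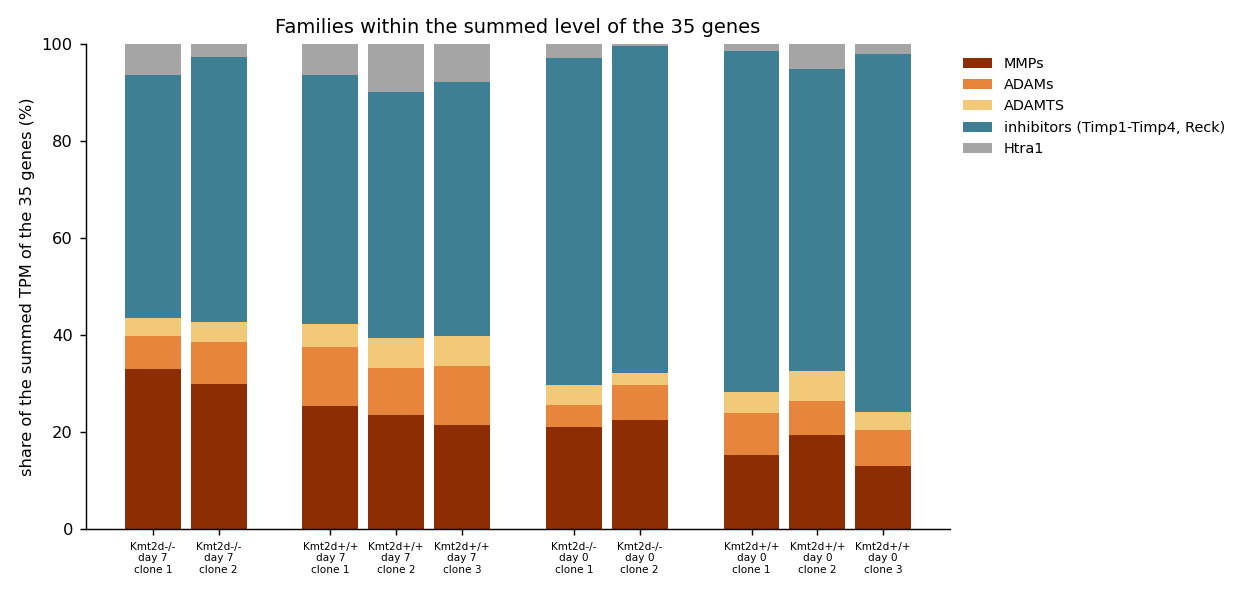
Share of the summed TPM of the 35 genes taken by each family in each library (stacked bars from 0 to 100%), with Kmt2d-/- and then Kmt2d+/+ clones at day 7, followed by the same at day 0. The inhibitors take 50.0% to 54.6% in the 5 libraries of day 7 and 62.4% to 73.8% in the 5 libraries of day 0.

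Clones of 1 genotype differed widely in some of these genes. Where a gene's group mean reached 1 CPM, the highest clone was a median 1.42 times the lowest in Kmt2d-/- clones and 1.85 times in Kmt2d+/+ clones at day 7. At day 0 these medians were 1.75 and 1.68. Such a ratio tends to grow with the number of clones, here 2 Kmt2d-/- and 3 Kmt2d+/+, so it does not compare the spread of the genotypes. The widest was Adamts2, with 24.8, 197 and 84.3 CPM in Kmt2d+/+ clones 1 to 3 at day 7 and 10.2, 171 and 30.9 CPM in the same clones at day 0. Htra1 had 263 and 84.9 CPM in Kmt2d-/- clones 1 and 2 at day 7, against 178 and 18 CPM at day 0. Clone 2 of Kmt2d+/+ was the highest of its genotype on both days in Mmp2, Mmp15, Mmp17, Mmp19, Adam15, Adamts1, Adamts2, Timp1, Reck and Htra1. It was also the highest in Mmp10 and Mmp23, which had few counts.

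Of 150 related genes on 13 lists (other proteases and inhibitors, activators, substrates and regulators), 117 were tested. Between genotypes 6 of the 117 passed in edgeR at day 7, against 1.87% of all genes, and 3 at day 0, against 2.15%. All were higher in Kmt2d-/- clones. Among the cathepsins, Ctsa, a lysosomal carboxypeptidase, averaged 279.6 ± 47.3 CPM in Kmt2d-/- clones (SD, n = 2) and 117 ± 7.06 CPM in Kmt2d+/+ clones (SD, n = 3) at day 7, a 2.39-fold difference (edgeR adjusted p = 0.0205), with 2.52-fold at day 0 (edgeR adjusted p = 0.0186). Ctsz was 1.68-fold higher at day 7 (edgeR adjusted p = 0.0402) and 1.73-fold at day 0 (edgeR adjusted p = 0.0314). Spock2, a matrix proteoglycan with a protease-inhibitor-like domain, averaged 24.6 ± 17 CPM in Kmt2d-/- clones and 0.853 ± 0.524 CPM in Kmt2d+/+ clones at day 7 (log2 fold change 4.85, edgeR adjusted p = 0.0256, and 3.88 with adjusted p = 0.0697 without Kmt2d-/- clone 2). The other 3 were the cartilage matrix substrates Col2a1 (94.9-fold, edgeR adjusted p = 0.0252), Matn1 (7.48-fold, edgeR adjusted p = 0.0369) and Matn3 (10.5-fold, edgeR adjusted p = 0.0346). Without Kmt2d-/- clone 1 the log2 fold change of Matn3 was 2.65, against 3.39 with it. At day 0 the third was Col2a1, 109-fold higher (log2 fold change of 6.77, edgeR adjusted p = 0.023). That value was 8.18 without Kmt2d+/+ clone 2, 5.72 without Kmt2d-/- clone 1 and 7.38 without Kmt2d-/- clone 2.

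With day, 5 related genes passed in Kmt2d-/- clones, all higher at day 7, against 1.27% of all genes in either direction. In Kmt2d+/+ clones 11 rose and 4 fell, against 5.08% of all genes in either direction. With a term for each clone edgeR called 19 higher and 5 lower in Kmt2d-/- clones, against 3.16% and 2.41% of all genes. In Kmt2d+/+ clones it called 24 higher and 12 lower, against 10.3% and 7.76%. Adamts14, a procollagen N-proteinase, rose in both genotypes. It averaged 9.69 ± 0.841 CPM at day 7, against 0.951 ± 0.567 CPM at day 0 in Kmt2d-/- clones (SD, n = 2; edgeR adjusted p = 0.0482), and 17.1 ± 3.93 CPM at day 7, against 3.35 ± 1.92 CPM at day 0 in Kmt2d+/+ clones (SD, n = 3; edgeR adjusted p = 0.036). Its log2 fold change in Kmt2d-/- clones was 3.35, with 4.21 when clone 1 was left out and 2.74 when clone 2 was. In Kmt2d+/+ clones Adamtsl2 rose (log2 fold change 3.07, edgeR adjusted p = 0.0295, and 3.99 without Kmt2d+/+ clone 2) and Adamtsl3 fell (-2.13, edgeR adjusted p = 0.0458, and -2.75 without Kmt2d+/+ clone 3). Hbegf, a growth factor released by ADAMs, fell 4.75-fold (edgeR adjusted p = 0.0472) and fibronectin (Fn1) 2.73-fold (edgeR adjusted p = 0.0466). Ctsh and Ctsz rose 4.08-fold and 1.68-fold (edgeR adjusted p = 0.0439 and 0.0218), and Runx2, a transcription factor of hypertrophic chondrocytes and osteoblasts, rose 1.94-fold (edgeR adjusted p = 0.0382). The cartilage matrix genes Matn1, Matn3, Comp and Fmod rose in both genotypes, and Col2a1 and Col9a1 passed in Kmt2d+/+ clones. Their rises were 30.9-fold (Matn3) to 362-fold (Matn1) in Kmt2d-/- clones and 6.77-fold (Matn3) to 59.2-fold (Matn1) in Kmt2d+/+ clones, with edgeR adjusted p from 0.0114 to 0.0439 and from 0.00741 to 0.0423. In Kmt2d-/- clones the log2 fold change of Matn1 was 8.50, or 9.49 without Kmt2d-/- clone 1 and 7.68 without Kmt2d-/- clone 2. There Comp was at 5.58, or 4.87 without Kmt2d-/- clone 2, and Fmod at 5.38, or 6.08 without Kmt2d-/- clone 1. In Kmt2d+/+ clones Matn1 was at 5.89, Comp at 3.43, Col2a1 at 3.95 and Col9a1 at 5.79 on that scale. Without Kmt2d+/+ clone 1 these were 5.28, 2.14, 3.13 and 3.83, and without Kmt2d+/+ clone 2 they were 6.79, 4.11, 5.67 and 7.09. Each call on a related gene was lost when at least 2 of the 5 clones were left out in turn. In 5 of the lists no gene passed in any comparison. Their most abundant genes were Pcolce, an enhancer of procollagen C-proteinase, with a mean of 698 CPM in Kmt2d-/- and 597 CPM in Kmt2d+/+ clones at day 7, and Mbtps1, a Golgi protease, with 427 CPM in Kmt2d-/- and 257 CPM in Kmt2d+/+ clones at day 7. Tspan14, a tetraspanin that escorts Adam10, averaged 95.7 CPM in Kmt2d-/- and 63.3 CPM in Kmt2d+/+ clones at day 7. Among the remaining MMPs and ADAMs, Mmp28 averaged 5.31 CPM in Kmt2d-/- and 6.58 CPM in Kmt2d+/+ clones, and Adam22 averaged 4.9 CPM in Kmt2d-/- and 0.963 CPM in Kmt2d+/+ clones at day 7.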

How the data were processed

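RNA-seq was done on 10 libraries of ATDC5 clones, 4 groups from 2 genotypes and 2 days. The authors deposited estimated counts per gene and run; Salmon, edgeR, limma, DESeq2 and the build GRCm38 are listed in the submitters' processing notes, and neither the annotation nor strand use in counting is stated there. The 2 runs of each library were summed and rounded to whole numbers, and all 20 columns were matched to a sample. Genes were filtered with filterByExpr, scaled by TMM and fitted with group means by edgeR's quasi-likelihood test (edgeR 4.0.16, R 4.3.3), with 6 residual degrees of freedom and Benjamini-Hochberg adjustment over 15467 genes at 0.05. The SE is that of the log2 fold change. CPM are TMM-scaled, and TPM use merged exon length from GENCODE on GRCm38. DESeq2 1.42.0, limma 3.58.1 (voom) and other scalings, filters and subsets were alternatives, with each clone left out in turn; the script was tested on simulated data. Depth was 35792709 to 66237183 counts, and 3 counts equal 0.0838 CPM in the shallowest library before TMM scaling. This floor covers counting error only.

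The clones are the same cell lines on both days, per the labels, so the clone numbers pair the days; deviations from group means correlated at 0.463 in Kmt2d-/- clones and 0.363 to 0.571 in Kmt2d+/+ clones. Members and lists were chosen with earlier results of these data known. Values in every library are given for genes called in any comparison, the most abundant per length of each family, the 6 largest genotype differences among genes of at least 1 CPM whose clones did not overlap, the 4 largest day differences, and Mmp13. From each related list the passing genes are named, except 1 that is not reported here, and otherwise the most abundant; other genes were named after their values were seen.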

Additional observations from a re-analysis of the deposited data

Results flagged for a closer look

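Mmp15 was the gene whose day effect ran in opposite directions in the genotypes: both Kmt2d-/- clones were higher at day 7 and all 3 Kmt2d+/+ clones were lower. The Kmt2d-/- day effect minus the Kmt2d+/+ one was 1.47 on the log2 scale (SE 0.45), with an edgeR adjusted p of 1, and 0.402 with a term for each clone, so the difference did not pass a test over all genes. The same pattern of directions was present in 2.08% of all genes tested.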

How the results depend on the processing

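At day 7, edgeR called 1 of the 32 genes between genotypes. DESeq2 called 5, limma-voom 2, the fit with clone as a random replicate block 2, the first run alone 0 and the day 7 libraries alone 0. Leaving out 1 clone gave 0 to 1, with 0 without Kmt2d-/- clone 1, Kmt2d-/- clone 2, Kmt2d+/+ clone 1 and Kmt2d+/+ clone 3. At day 0 the count was 0; DESeq2 gave 6, and limma-voom, a minimum of 5 CPM and the second run alone gave 1 each. Leaving out 1 clone gave 0 to 1, with 1 without Kmt2d+/+ clone 2. For the days in Kmt2d-/- clones the count was 0, with 5 in DESeq2, 5 with a term for each clone (the replicate block) and 7 with the random block. In Kmt2d+/+ clones it was 2, with 9 in DESeq2, 4 from those libraries alone, 15 with the replicate block and 15 with the random block. Leaving out 1 clone gave 0 to 5, with 0 without Kmt2d+/+ clones 1 and 3 and 5 without Kmt2d+/+ clone 2. For the difference of the day effects the count was 0, and 1 in DESeq2. The cause of these moves was not tested. Shares of all genes were not worked out for the random block, the single runs, the subsets of libraries, the 5 CPM minimum or the fits with 1 clone left out. Those counts are therefore not read as results about the 32 genes. Of 338 alternative values of the named genes, 297 kept direction and side of the threshold, 10 no longer passed, 31 newly passed and 0 reversed. With 1 Kmt2d-/- clone left, that clone is assumed to vary like the other groups. Depth limits Mmp3, Mmp10 and Timp4, which had too few counts to test.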
